A study of Mus musculus with 12 samples.

Results

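The 10 genes described here encode a chaperone and enzymes that fold, hydroxylate and crosslink collagen: Serpinh1, P4ha1, P4ha2, P4ha3, Plod1, Plod2, Lox, Loxl1, Loxl2 and Loxl3. They were taken by symbol from a deposited table of 28116 gene symbols, and all 10 were found. Each was at or above 1 CPM (the counts-per-million value, a gene's reads relative to those of its library) in all 12 libraries, so all 10 were among the 14063 genes tested.

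RNA was sequenced from the tibialis anterior, a muscle of the lower leg, of mice that were 4 months old and of the strain C57BL/10ScSn-Dmdmdx/J. These mice carry the mdx mutation of the dystrophin gene and serve as a model of Duchenne muscular dystrophy. Every muscle had received cardiotoxin, a component of cobra venom that kills fibres and so starts regeneration, so the mutation and the injury are common to all groups. The toxin was given together with either anti-miR-106b, which blocks the microRNA miR-106b, or a scrambled control inhibitor, and the muscle was taken at day 3 or day 7, which gives 4 groups of 3 animals. The labels of the libraries say day 3 or 7, while the design text once gives the later time as day 5, and the labels were followed. Muscle without the toxin, and muscle of mice with intact dystrophin, were not analysed here.

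Collagen chains are modified in the endoplasmic reticulum before they form a triple helix. Prolyl 4-hydroxylases, made of a catalytic alpha subunit (P4ha1, P4ha2 or P4ha3) and the shared beta subunit P4hb, hydroxylate prolines that keep the helix stable, and lysyl hydroxylases (Plod1, Plod2, Plod3) hydroxylate lysines used for sugar attachment and crosslinks. Serpinh1, also called Hsp47, is a chaperone that binds the folded procollagen, and the secreted lysyl oxidases (Lox and Loxl1 to Loxl4) oxidise lysines so that fibrils become covalently crosslinked. In injured muscle these proteins come largely from fibroblasts and related stromal cells, and stiff, crosslinked collagen is a feature of dystrophic muscle.

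The inhibitor is directed at miR-106b, so its mature sequence from RefSeq (GRCm38.p6) is shown first, with the seed, bases 2 to 8, in capitals. It is followed by 2 examples of miRNAs that have the same seed, 1 from the same cluster on chromosome 5 and 1 from chromosome 14. The seed is also held by miR-20a-5p, miR-20b-5p, miR-106a-5p and miR-6383, which are not shown.
mmu-miR-106b-5p: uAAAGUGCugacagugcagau
mmu-miR-93-5p: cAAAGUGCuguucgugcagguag
mmu-miR-17-5p: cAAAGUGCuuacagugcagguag

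Matches to this seed were sought in each gene's longest 3' UTR in the annotation: GCACTTTA (8 bases), GCACTTT or CACTTTA (7 bases) and CACTTT (6 bases). No gene of the 10 held the 8-base match, which was present in 572 of 12923 tested genes with a 3' UTR (4.43%). Lox had a single 7-base match, CACTTTA, and 1 further 6-base match, while 22% of the tested genes had a match of 7 or more bases. Loxl3 had 1 and Plod2 had 2 matches of 6 bases, and the other 7 genes had none, against 41.8% of tested genes with a match of 6 or more. The matches of Loxl3 and Plod2 are shown on the gene's own strand with the 6 matching bases in capitals. A match of letters is a description of the annotated UTR and does not show that the miRNA binds there.
Loxl3 site, chr6:83051251-83051278, plus strand: agatccaaccccCACTTTtgactgtaac
Plod2 site, chr9:92607330-92607357, plus strand: acagaacaacatCACTTTgggccaagca
Plod2 site, chr9:92607352-92607379, plus strand: caagcatttgaaCACTTTttatataaaa

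The prolyl hydroxylase alpha subunits did not move alike in these muscles, and some enzymes of collagen hydroxylation are textbook targets of hypoxia-inducible factors, so RefSeq promoters (250 bases before to 50 bases after the start, GRCm38.p6) were searched on both strands for the core letters of the hypoxia response element, ACGTG or GCGTG. Promoters were matched for P4ha1, P4ha2, P4ha3, Plod1 and Serpinh1. P4ha1 had 3 matches, P4ha2 had 4, Plod1 had 2, Serpinh1 had 1 and P4ha3 had 0. A match was held by 43.8% of all 32851 RefSeq promoters, and by 59.9% of the 13633 promoters of tested genes, so a match is common. The search was prompted by these same data, and a link of the matches to the movement of the subunits was not tested. The 3 alpha subunit promoters are shown 5' to 3' on the gene's strand, with matches in capitals (CACGT and CACGC are matches on the other strand).
P4ha1 promoter, chr10:59323046-59323345, plus strand: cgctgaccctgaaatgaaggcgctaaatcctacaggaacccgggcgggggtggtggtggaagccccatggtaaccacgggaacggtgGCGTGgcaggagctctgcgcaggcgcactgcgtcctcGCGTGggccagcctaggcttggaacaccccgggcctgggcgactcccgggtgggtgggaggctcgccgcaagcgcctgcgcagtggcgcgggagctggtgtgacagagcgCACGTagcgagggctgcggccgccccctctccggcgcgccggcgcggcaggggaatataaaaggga
P4ha2 promoter, chr11:54100674-54100973, plus strand: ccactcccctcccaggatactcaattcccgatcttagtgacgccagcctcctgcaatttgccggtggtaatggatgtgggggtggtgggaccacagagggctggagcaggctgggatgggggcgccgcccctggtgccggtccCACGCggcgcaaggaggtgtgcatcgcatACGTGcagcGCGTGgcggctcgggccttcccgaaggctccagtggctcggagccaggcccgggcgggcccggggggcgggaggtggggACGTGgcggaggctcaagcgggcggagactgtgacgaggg
P4ha3 promoter, chr7:100285270-100285569, plus strand: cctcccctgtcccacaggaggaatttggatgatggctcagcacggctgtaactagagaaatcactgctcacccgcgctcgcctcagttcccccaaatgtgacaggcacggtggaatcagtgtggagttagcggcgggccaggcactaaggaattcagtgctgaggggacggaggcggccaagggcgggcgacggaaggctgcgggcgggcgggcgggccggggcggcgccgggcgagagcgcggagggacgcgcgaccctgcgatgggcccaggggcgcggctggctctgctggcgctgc

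The libraries held between 28857739 and 42825246 reads in genes. The lowest level of any of the 10 genes in a library, that of P4ha3 at day 7, rested on 39 reads, and the highest, that of Serpinh1 at day 3, on 24511 reads. Mature fibre markers such as the creatine kinase gene Ckm and the actin gene Acta1 summed to 71869 CPM or more in every library, and no marker of the cell types examined was at 0. The 3 scrambled libraries of day 7 differed from each other more than those of other groups, with a chi-square per degree of freedom over genes of 21.5 between replicates 2 and 3 and of 39.4 and 52.9 between replicate 1 and these, so results that turn on replicate 1 are given without it too. Replicates 1 to 3 are described as separate animals in each group.

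Levels are given as log2 CPM, where a difference of 1 is a 2-fold difference. At day 3, 7 of the 10 genes were higher with anti-miR-106b than with the scrambled control: Loxl3, P4ha3, Lox, Serpinh1, Loxl1, Plod2 and Plod1, by 0.34 to 0.86 on the log2 scale. P4ha1, P4ha2 and Loxl2 did not pass the test. Of all tested genes, 16.3% were higher and 19.4% lower in that comparison. At day 7 none of the 10 passed, where 0.00711% of all tested genes were higher and 0.0569% lower. Between day 3 and day 7, 8 of the 10 fell in each arm, and P4ha1 and P4ha2 did not pass the test in either arm. Of all tested genes, 35.3% fell between days in the scrambled arm and 40.8% with anti-miR-106b. The plot of levels by library shows these patterns gene by gene.

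**Figure D1:**
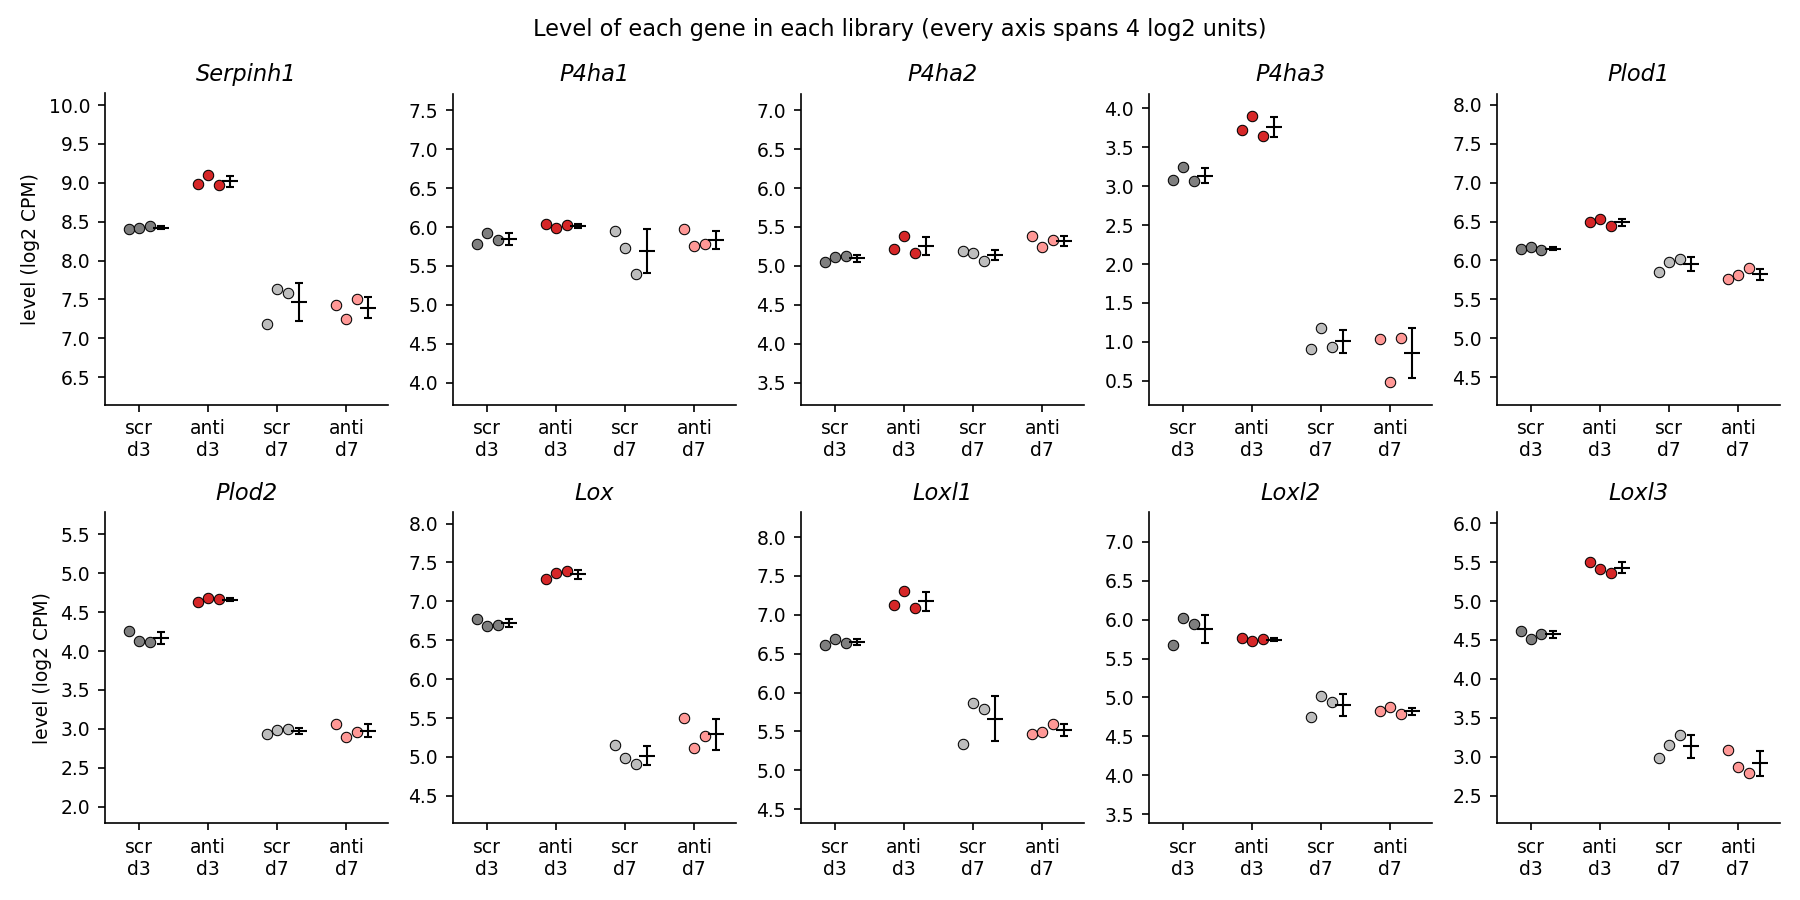
Level in log2 CPM (vertical axis) of each of the 10 genes in each library (points), for the scrambled (scr) and anti-miR-106b (anti) groups at day 3 (d3) and day 7 (d7); bars are the mean and SD of 3 libraries, and every axis spans 4 log2 units. For Loxl3 the anti-miR-106b libraries of day 3 sit at 5.36 to 5.50, above the scrambled ones at 4.52 to 4.62, while P4ha2 stays between 5.04 and 5.39 in all 12 libraries.

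Serpinh1 (chr7:99345376-99353239, minus strand, GRCm38), the collagen chaperone, was at 8.41, 8.42 and 8.44 log2 CPM in the scrambled libraries of day 3 and at 8.98, 9.11 and 8.97 with anti-miR-106b. At day 7 it was at 7.19, 7.64 and 7.58 in the scrambled arm and at 7.43, 7.25 and 7.51 with anti-miR-106b. All 3 treated libraries of day 3 lay above all 3 controls, and the arms overlapped at day 7. The difference at day 3 was 0.60 (SE 0.10, adjusted p = 0.00078). The fall from day 3 to day 7 was -0.95 (SE 0.10, adjusted p = 2.66e-06) in the scrambled arm and -1.62 (SE 0.10, adjusted p = 5.37e-09) with anti-miR-106b.

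Of the prolyl 4-hydroxylase alpha subunits, P4ha1 (chr10:59323296-59373304, plus strand) was at 5.78, 5.92 and 5.83 in the scrambled libraries of day 3 and at 6.04, 5.99 and 6.02 with anti-miR-106b. At day 7 its levels were 5.95, 5.73 and 5.40 in the scrambled arm and 5.97, 5.75 and 5.79 with anti-miR-106b. The treated libraries of day 3 all lay above the controls by a small margin, but the difference of 0.17 (SE 0.11, 95% interval -0.06 to 0.41) did not pass (adjusted p = 0.24). Neither did its difference between days, -0.15 (SE 0.11, adjusted p = 0.237) in the scrambled arm and -0.18 (SE 0.11, adjusted p = 0.147) with anti-miR-106b, where the libraries of day 7 all lay below those of day 3. In the scrambled arm the value without replicate 1 of day 7 was -0.28 (adjusted p = 0.0188). With anti-miR-106b the adjusted p without replicate 3 of the scrambled day 7 group was 0.0421. The SE is shared by all 4 groups. With only the groups of day 3 fitted, the day 3 difference had an SE of 0.05 and passed (limma, adjusted p = 0.0146). It also passed with library weights (adjusted p = 0.00645) and total counts (0.36, adjusted p = 0.00804), but not with any library left out (adjusted p 0.088 to 0.43).

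P4ha2 (chr11:54100095-54131665, plus strand), the second alpha subunit, was at 5.04, 5.11 and 5.13 in the scrambled libraries of day 3 and at 5.21, 5.39 and 5.17 with anti-miR-106b. Its day 7 levels were 5.19, 5.17 and 5.06 and, with anti-miR-106b, 5.38, 5.25 and 5.33. The treated libraries lay above the controls on both days, by 0.16 (SE 0.07, adjusted p = 0.0944) at day 3 and by 0.18 (SE 0.07, adjusted p = 0.361) at day 7. Neither passed. The day 3 difference did pass by limma with only the groups of day 3 (adjusted p = 0.0486), quantile normalization (0.0323), library weights (0.0226) and total counts (0.35, adjusted p = 0.000842). It did not with any library left out (adjusted p 0.0695 to 0.365). Between days it differed by 0.05 (SE 0.07, 95% interval -0.11 to 0.20) in the scrambled arm and by 0.06 (SE 0.07, 95% interval -0.09 to 0.22) with anti-miR-106b.

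P4ha3 (chr7:100285520-100319699, plus strand), the third alpha subunit, had the lowest levels and the widest movement. It was at 3.08, 3.24 and 3.07 in the scrambled libraries of day 3 and at 3.72, 3.90 and 3.65 with anti-miR-106b. At day 7 it was at 0.91, 1.17 and 0.94 and, with anti-miR-106b, at 1.03, 0.48 and 1.05. The arms were apart at day 3, by 0.63 (SE 0.15, adjusted p = 0.00592), and overlapped at day 7. The fall between days was -2.13 (SE 0.15, adjusted p = 6.58e-08) in the scrambled arm and -2.91 (SE 0.15, adjusted p = 1.16e-09) with anti-miR-106b, where the day 7 levels rest on 39 to 63 reads.

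The lysyl hydroxylase Plod1 (chr4:147909753-147936767, minus strand), which acts mainly on lysines within the helix, was at 6.15, 6.17 and 6.13 in the scrambled libraries of day 3 and at 6.49, 6.53 and 6.44 with anti-miR-106b. The day 7 libraries had 5.85, 5.98 and 6.02 and, with anti-miR-106b, 5.76, 5.81 and 5.90. The difference at day 3 was 0.34 (SE 0.06, adjusted p = 0.00118), with no overlap. Its fall between days was the smallest of those that passed, -0.20 (SE 0.06, adjusted p = 0.0118) in the scrambled arm, and -0.66 (SE 0.06, adjusted p = 2.48e-07) with anti-miR-106b. Without replicate 1 of the scrambled day 7 group the scrambled value was -0.15 (adjusted p = 0.0507).

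Plod2 (chr9:92542223-92608428, plus strand) hydroxylates lysines of the telopeptides, the ends of the collagen molecule, and so sets the kind of crosslink that lysyl oxidases can form. Its levels were 4.26, 4.13 and 4.12 in the scrambled libraries of day 3 and 4.64, 4.68 and 4.67 with anti-miR-106b. At day 7 they were 2.93, 2.99 and 3.00 and, with anti-miR-106b, 3.06, 2.90 and 2.96. The arms were apart at day 3, by 0.49 (SE 0.07, adjusted p = 0.000308), and overlapped at day 7. Plod2 fell by 1.20 (SE 0.07, adjusted p = 2.5e-08) on the log2 scale between days in the scrambled arm and by 1.69 (SE 0.07, adjusted p = 3.59e-10) with anti-miR-106b.

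Among the lysyl oxidases, Lox (chr18:52516067-52529867, minus strand) was at 6.78, 6.69 and 6.70 in the scrambled libraries of day 3 and at 7.29, 7.36 and 7.39 with anti-miR-106b. At day 7 it was at 5.15, 4.99 and 4.91 in the scrambled arm and at 5.51, 5.11 and 5.26 with anti-miR-106b. The arms were apart at day 3, by 0.62 (SE 0.09, adjusted p = 0.000275), and overlapped at day 7, where the difference of 0.28 (SE 0.09) had an unadjusted p of 0.00888 and an adjusted p of 0.275. Lox fell between days, with differences of -1.71 (SE 0.09, adjusted p = 9.75e-09) in the scrambled arm and -2.05 (SE 0.09, adjusted p = 4.09e-10) with anti-miR-106b.

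Loxl1 (chr9:58287738-58313186, minus strand), a relative of Lox best known for its part in elastic fibres, was at 6.61, 6.69 and 6.64 in the scrambled libraries of day 3 and at 7.12, 7.31 and 7.09 with anti-miR-106b. At day 7 it was at 5.34, 5.87 and 5.79 and, with anti-miR-106b, at 5.46, 5.49 and 5.60. The difference at day 3 was 0.52 (SE 0.11, adjusted p = 0.00294), with no overlap. At day 7 the lowest library of all 6 was replicate 1 of the scrambled group, and the difference of -0.15 (SE 0.11, adjusted p = 0.686) became -0.31 (adjusted p = 0.0443) without it. The fall between days was -0.98 (SE 0.11, adjusted p = 4.08e-06) in the scrambled arm and -1.65 (SE 0.11, adjusted p = 9.47e-09) with anti-miR-106b.

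Loxl2 (chr14:69609068-69695834, plus strand), a lysyl oxidase that also acts on basement membrane collagen, was the only one of the 4 lysyl oxidases among the 10 genes that was not higher with anti-miR-106b at day 3. Its levels were 5.68, 6.02 and 5.95 in the scrambled libraries of day 3 and 5.76, 5.72 and 5.75 with anti-miR-106b. At day 7 they were 4.75, 5.02 and 4.95 and, with anti-miR-106b, 4.82, 4.87 and 4.78. The arms overlapped on both days, with differences of -0.14 (SE 0.09, adjusted p = 0.246) and -0.08 (SE 0.09, adjusted p = 0.792). Without replicate 1 of the scrambled day 3 group the first was -0.24 (adjusted p = 0.0429), and with libraries scaled to their total counts it was 0.05. Loxl2 fell by 0.97 (SE 0.09, adjusted p = 5.83e-07) in the scrambled arm and by 0.92 (SE 0.09, adjusted p = 3.74e-07) with anti-miR-106b.

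Loxl3 (chr6:83034173-83052562, plus strand), which is closest to Loxl2 in its domains, had the largest day 3 difference of the 10 genes. It was at 4.62, 4.52 and 4.58 in the scrambled libraries and at 5.50, 5.42 and 5.36 with anti-miR-106b, a difference of 0.86 (SE 0.09, adjusted p = 4.83e-05). The day 7 levels were 2.98, 3.15 and 3.28 and, with anti-miR-106b, 3.09, 2.87 and 2.79, with overlapping arms and a difference of -0.22 (SE 0.09, adjusted p = 0.406). The fall was -1.44 (SE 0.09, adjusted p = 3.87e-08) in the scrambled arm and -2.51 (SE 0.09, adjusted p = 1.69e-10) with anti-miR-106b. Its exons share 535 bases with the opposite-strand gene Htra2, a mitochondrial protease, and use of strand in counting is not stated, so reads there cannot be assigned. The same holds for 346 bases of Plod2 shared with Gm38391, 301 of Loxl2 with Gm27177 and 30 of Lox with AC161119.1, all on the opposite strand. Htra2 itself differed by 0.16 (SE 0.08, adjusted p = 0.133) at day 3. Between days Htra2 fell, with differences of -0.25 (SE 0.08, adjusted p = 0.011) in the scrambled arm and -0.44 (SE 0.08, adjusted p = 0.000128) with anti-miR-106b.

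In the comparison of anti-miR-106b with the scrambled control at day 3, the 7 of 10 higher genes and 0 of 10 lower genes stand beside 16.3% of all tested genes that were higher and 19.4% that were lower. The median difference of the 10 was 0.51, and that of all tested genes 0.01. The authors' scaling of library sizes bears on this split. With libraries scaled to total counts the median of all genes moved to 0.20, and 78.8% of called genes were higher instead of 45.7%. Of the 10 genes 9 were then called. Of all 14063 tested genes 5165 were then higher and 1392 lower, against 2296 and 2726 with the authors' scaling.

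At day 7 the same comparison called 0 of the 10 genes, with background shares of 0.00711% higher and 0.0569% lower. By limma's unadjusted p below 0.05, 3 of the 10 stood out (Lox and P4ha2 upward, Loxl3 downward) against 11.2% of all tested genes. Weights from the recovered reads also called 0. Leaving out replicate 1 of the scrambled day 7 group gave 1 called gene, Loxl1, and 457 called genes in all, where all 12 libraries gave 9.

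The change of the anti-miR-106b effect from day 3 to day 7 was tested directly, as an interaction. It was lower at day 7 for 6 of the 10 genes and higher for 0, against 9.07% lower and 13.2% higher among all tested genes. Loxl3 changed most, by -1.08 (SE 0.13, adjusted p = 0.000583), followed by P4ha3 at -0.78 (SE 0.21, adjusted p = 0.0195), Serpinh1 at -0.67 (SE 0.15, adjusted p = 0.00665), Loxl1 at -0.67 (SE 0.16, adjusted p = 0.01), Plod2 at -0.49 (SE 0.10, adjusted p = 0.00573) and Plod1 at -0.47 (SE 0.09, adjusted p = 0.00341). Lox, at -0.35 (SE 0.13, adjusted p = 0.0696), did not pass, but it did with 5 CPM added (adjusted p = 0.0333), quantile normalization (-0.455, adjusted p = 0.00969), total counts (-0.56, adjusted p = 0.00671) and library weights (adjusted p = 0.0147). For P4ha1, P4ha2 and Loxl2 the change lay between -0.03 and 0.06. P4ha3 no longer passed without replicate 3 of the scrambled day 3 group (adjusted p = 0.0521) or replicate 2 of the anti-miR-106b day 3 group (adjusted p = 0.0587), and Lox passed without replicate 3 of the scrambled day 7 group (0.0499) or replicate 1 of the anti-miR-106b day 7 group (0.0131).

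**Figure D2:**
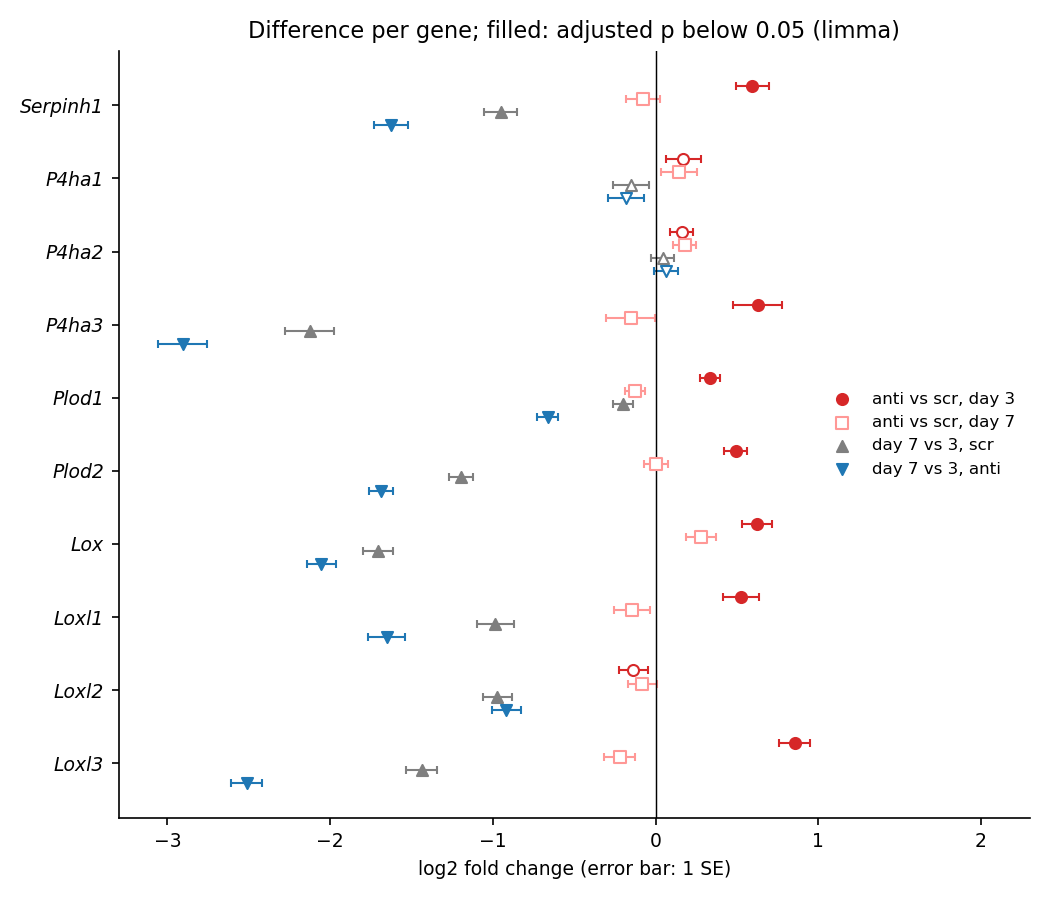
Log2 fold change (horizontal axis, error bars 1 SE) of each gene in 4 comparisons, with filled symbols for an adjusted p below 0.05 (limma). The day 3 effect of anti-miR-106b is filled for 7 genes from 0.34 to 0.86, the day 7 effect for none, and the differences between days are filled for all genes except P4ha1 and P4ha2.

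Over time in the scrambled arm, 8 of the 10 genes fell and 0 rose, against 35.3% lower and 32.9% higher among all tested genes. With anti-miR-106b the counts were also 8 and 0, against 40.8% lower and 37.9% higher. The medians of the 10 genes were -0.98 and -1.64, where those of all genes were 0.00 and -0.02. The 2 contrasts over time use different libraries, but each shares its libraries with the comparisons between arms. Scaling to total counts shifted the median of all genes to -0.41 in the scrambled arm and -0.65 with anti-miR-106b. The share of called genes that were higher then went from 48.2% to 15.1% in the scrambled arm and from 48.2% to 18.6% in the other, while quantile normalization gave 60.7% and 57.4%. Under total counts P4ha1 and P4ha2 were also lower at day 7, P4ha1 at -0.56 (adjusted p = 0.000143) in the scrambled arm and -0.81 (adjusted p = 2.68e-06) with anti-miR-106b, and P4ha2 at -0.36 (adjusted p = 0.000176) and -0.56 (adjusted p = 1.65e-06). Quantile normalization also called P4ha1 lower, at -0.22 (adjusted p = 0.0468) and -0.32 (adjusted p = 0.00536). With anti-miR-106b it was called with library weights (adjusted p = 0.0453) and with only the groups compared (adjusted p = 0.0387) as well.

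To set the levels of different genes side by side, CPM per kilobase of annotated exon was used. Serpinh1 was highest in all 4 groups, at 140.5 ± 1.46 and 212.5 ± 11.2 CPM per kilobase (SD, n = 3) in the scrambled and treated groups of day 3 and at 73.3 ± 11.8 and 69.0 ± 6.30 in those of day 7. In scrambled muscle of day 3 the order below it was Loxl1 (30.4 ± 0.86), Lox (22.1 ± 0.74), P4ha1 (14.0 ± 0.72), Loxl2 (11.0 ± 1.33), Plod1 (10.5 ± 0.15), P4ha2 (5.49 ± 0.17), Loxl3 (5.17 ± 0.18), Plod2 (3.3 ± 0.18) and P4ha3 (2.80 ± 0.19). The libraries of neighbours in this order did not overlap, except those of Loxl2 with Plod1 and of P4ha2 with Loxl3. The length used merges the exons of all annotated transcripts of a gene, which can exceed that of the transcripts present. The order of genes rests on this length, and other lengths were not tried.

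The order at day 7 was different. In scrambled muscle P4ha1 (12.7 ± 2.42 CPM per kilobase) overlapped Loxl1 (15.6 ± 2.92) and Lox (6.78 ± 0.59) came after Plod1 (9.16 ± 0.57), while P4ha3 stayed last at 0.643 ± 0.067. P4ha2 (5.66 ± 0.27) and Loxl2 (5.57 ± 0.54) overlapped there. With anti-miR-106b at day 7, overlap of neighbours was seen for P4ha1 with Loxl1, Plod1 with Lox, and Loxl3 with Plod2. The plot of levels per length gives all 12 libraries.

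**Figure D3:**
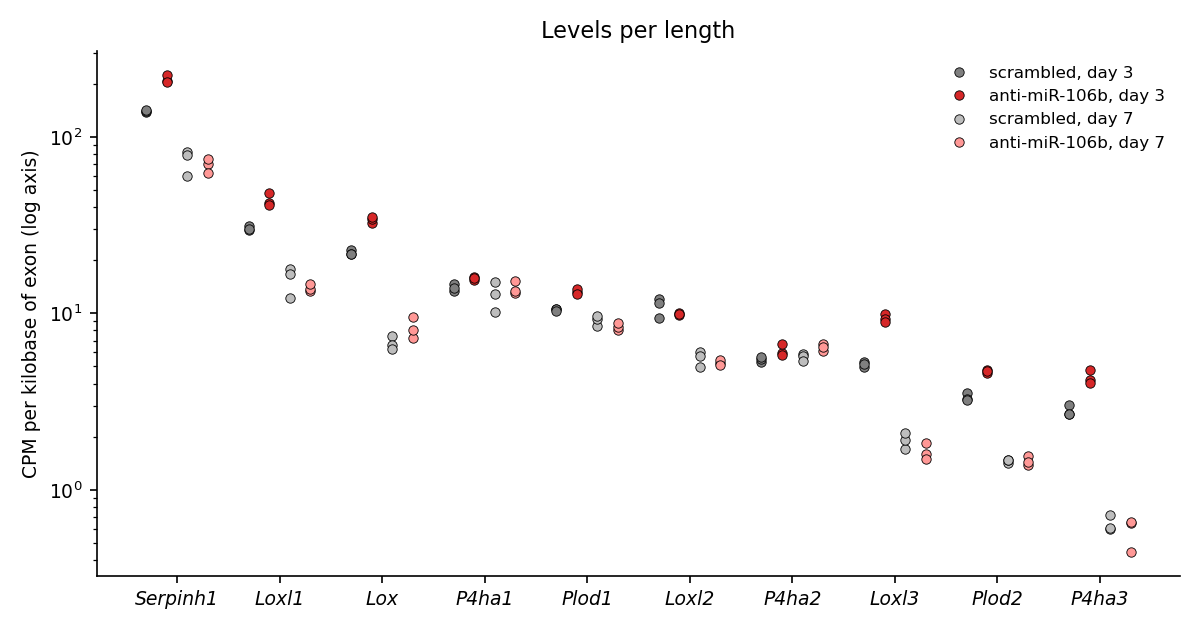
Level per length in CPM per kilobase of exon (vertical log axis) of the 10 genes, ordered by their mean, with 1 point per library and 4 groups by colour. Serpinh1 lies between 59.8 and 225.4 in the 12 libraries, above every other gene, and P4ha3 falls from 2.68 or more at day 3 to 0.72 or less at day 7.

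A ratio of 2 genes within a library does not depend on a single scaling factor per library, though it can move with quantile normalization. Ratios of CPM, with no correction for gene length, show here only how a pair changed between groups, not which gene was more abundant. In all, 6 log2 ratios were compared between days and between arms, in 12 two-sided exact permutation tests stratified by the other factor (400 arrangements, smallest possible p = 0.005) with Benjamini-Hochberg adjustment over the 12. Each test averages over the other factor, so a difference between arms that changes direction between the days is partly cancelled. Within the alpha subunits, the log2 ratio of P4ha1 to P4ha3 was 2.68 to 2.76 in scrambled muscle of day 3, 2.09 to 2.37 with anti-miR-106b, and 4.46 to 5.27 in the 6 libraries of day 7. The ratio was higher at day 7 by 2.35 (exact permutation test, adjusted p = 0.012), with all 6 libraries of day 7 above all 6 of day 3. P4ha1 to P4ha2 was lower at day 7 by 0.22 (difference -0.22, exact permutation test, adjusted p = 0.0375). That call was kept without replicate 2 of anti-miR-106b day 3 or replicate 1 of scrambled day 7, and lost without any other library. Values ranged from -0.27 to -0.17. Without replicate 1 of anti-miR-106b day 7 the difference was larger, at -0.24, and the call was still lost (adjusted p = 0.06 by the same exact test). Leaving out a library leaves fewer arrangements, so for this and the ratios below a lost call does not show that 1 library carried the difference.

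Plod2 fell relative to Plod1: the log2 ratio went from -2.04 to -1.90 in scrambled and -1.85 to -1.77 in treated libraries of day 3 to between -3.03 and -2.70 at day 7, a difference of -1.01 (exact permutation test, adjusted p = 0.012). The ratio was higher with anti-miR-106b by 0.14 over both days (exact permutation test, adjusted p = 0.02). The latter call was lost without replicate 1 or 3 of anti-miR-106b day 3, replicate 2 or 3 of scrambled day 7 or replicate 1 of anti-miR-106b day 7. Values with a library left out ranged from 0.10 to 0.16. Without replicate 1 of anti-miR-106b day 3 the value was 0.15, no smaller than with all libraries (adjusted p = 0.05 by the same exact test).

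Lox fell relative to Loxl1: the log2 ratio was -0.0043 to 0.30 over the 6 libraries of day 3 and -0.88 to 0.04 over those of day 7, with overlap of 1 library, a difference of -0.56 (exact permutation test, adjusted p = 0.012). Between arms the difference was 0.26 (exact permutation test, adjusted p = 0.156), and 0.38 (adjusted p = 0.03 by the same exact test) without replicate 1 of scrambled day 7. The ratio of Loxl2 to Loxl3 was 1.06 to 1.5 in scrambled and 0.26 to 0.38 in treated libraries of day 3, and 1.67 to 2.00 at day 7. It rose between days by 1.03 (exact permutation test, adjusted p = 0.012), and the difference between arms over both days, -0.43, did not pass (exact permutation test, adjusted p = 0.12). That test averages the days. The group mean was 1.31 in scrambled and 0.31 in treated muscle at day 3, but 1.77 and 1.91 at day 7. Opposite directions partly cancel there, so the test does not address day 3 alone.

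Serpinh1 was also set against one of its clients, the collagen chain Col1a1. The log2 ratio was -2.78 to -2.74 in scrambled and -2.70 to -2.57 in treated libraries of day 3, and -2.62 to -2.27 at day 7. It was higher at day 7 by 0.28 (exact permutation test, adjusted p = 0.012) and with anti-miR-106b by 0.13 (exact permutation test, adjusted p = 0.0375). The second call was kept only when the library left out was replicate 2 of anti-miR-106b day 3, replicate 1 of scrambled day 7 or replicate 2 of anti-miR-106b day 7. Without replicate 2 of scrambled day 7 the difference was larger, at 0.15, but did not pass (adjusted p = 0.0514 by the same exact test). Quantile normalization turned the difference between arms to -0.06. Labels swapped only between libraries of the same replicate number allow so few arrangements that no ratio passes (adjusted p = 0.0536 or 0.0833 for those called above).

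**Figure D4:**
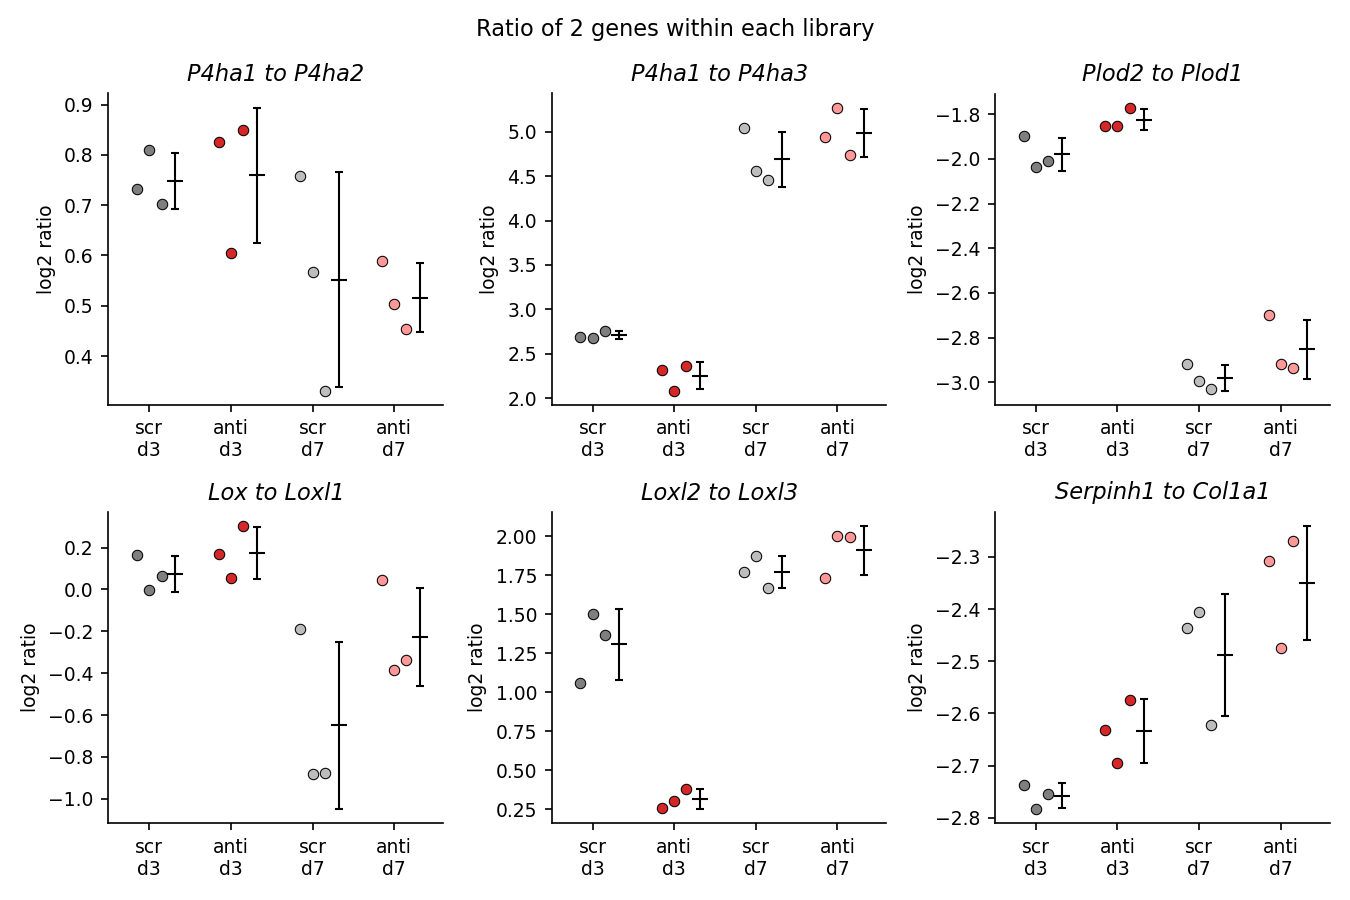
Log2 ratio (vertical axis, a separate range in each panel) of 6 pairs of genes within each library (points), with the mean and SD of 3 libraries per group. P4ha1 to P4ha3 separates the days with no overlap (2.09 to 2.76 against 4.46 to 5.27), and Loxl2 to Loxl3 drops to 0.26 to 0.38 in the treated libraries of day 3.

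Of 29 other genes of collagen folding, modification, export, propeptide removal and crosslinking, 10 were higher and 2 lower with anti-miR-106b at day 3, with a median of 0.17. For this and the lists below, 16.3% of all tested genes were higher and 19.4% lower in that comparison. Between days in the scrambled arm the shares were 32.9% higher and 35.3% lower. Fkbp10, a prolyl isomerase of the endoplasmic reticulum that works with lysyl hydroxylases, was higher by 0.83 (SE 0.12, adjusted p = 0.000208), Ppib, the prolyl isomerase cyclophilin B, by 0.62 (SE 0.10, adjusted p = 0.000405) and P4hb, the beta subunit of prolyl 4-hydroxylase, by 0.39 (SE 0.06, adjusted p = 0.000247). Plod3, the third lysyl hydroxylase, was higher by 0.36 (SE 0.08, adjusted p = 0.00365), Loxl4 differed by 0.22 (SE 0.19, adjusted p = 0.386), and Sec23a, a coat protein of transport vesicles, was lower at -0.45 (SE 0.08, adjusted p = 0.00075). At day 7 against day 3 in the scrambled arm 18 fell and 6 rose, with a median of -0.53. Adamts14, a procollagen N-proteinase, fell by 2.49 (SE 0.15, adjusted p = 2.65e-08), Fkbp10 by 1.5, Ppib by 1.31, Sec24d by 1.07, Plod3 by 0.71, Loxl4 by 0.68 and P4hb by 0.55, all with an adjusted p of 0.00693 or below.

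The substrates moved in the same comparisons as follows. Of 11 fibrillar collagen genes 4 were higher and 2 lower with anti-miR-106b at day 3 (median 0.14). Col5a1 was higher by 0.51 (SE 0.12, adjusted p = 0.00441), Col1a1 by 0.47 (SE 0.12, adjusted p = 0.00873) and Col1a2 by 0.34 (SE 0.10, adjusted p = 0.0217), while Col3a1 differed by 0.14 (SE 0.19, adjusted p = 0.598) and Col24a1 was lower at -0.67 (SE 0.12, adjusted p = 0.000798). Between days in the scrambled arm 7 fell and 2 rose (median -1.0), among them Col5a2 (-1.37), Col1a1 (-1.22), Col3a1 (-1.21), Col27a1 (-1.09) and Col1a2 (-1.0). Of 19 other collagen genes 3 were higher and 3 lower at day 3 (median 0.09), and 8 fell and 6 rose between days (median -0.25). These counts are near the shares of all tested genes given above. Those with the smallest p at day 3 were Col16a1 (0.58), Col8a2 (1.16), Col7a1 (-0.56) and Col8a1 (0.66).

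Of 18 genes that respond to hypoxia, 2 were higher and 8 lower with anti-miR-106b at day 3 (median -0.12), and 9 rose and 3 fell between days in the scrambled arm (median 0.45). The day 3 differences of the 18 ranged from -0.91 to 0.76. Those with the smallest p were all lower: Vegfa, a vascular growth factor, at -0.91 (SE 0.13, adjusted p = 0.000217), Ldha, lactate dehydrogenase A, at -0.73 (SE 0.10, adjusted p = 0.000146), Pgk1, a glycolytic kinase, at -0.52 (SE 0.06, adjusted p = 8.24e-05) and Higd1a, a mitochondrial protein, at -0.46 (SE 0.07, adjusted p = 0.00054). Between days Vegfa rose by 1.03, Mxi1 by 0.71, Higd1a by 0.69 and Pgk1 by 0.65. Lox and Plod2, both known to be induced by hypoxia, were higher with anti-miR-106b at day 3 and fell between days. P4ha1 and P4ha2 did not pass at day 3 (0.17 and 0.16) or between days in the scrambled arm (-0.15 and 0.05). P4ha3 was higher at day 3 (0.63) and fell between days (-2.13). Loxl2 did not pass at day 3 (-0.14) and fell between days (-0.97). A link of any of these genes to hypoxia in this muscle was not tested. Ldha and Pgk1 are also abundant in muscle fibres.

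In whole muscle, fewer cells of a type and less RNA per cell cannot be told apart, so markers of other cells are given beside these results. Counts of markers stand beside 16.3% higher and 19.4% lower of all tested genes at day 3. Between days in the scrambled arm the shares were 32.9% higher and 35.3% lower. The summed level of the 10 genes was 810 to 831 CPM in scrambled and 1126 to 1208 CPM in treated libraries of day 3, and 422 to 494 and 425 to 468 CPM at day 7. Over 14 markers of fibroblasts and fibro-adipogenic cells, such as Pdgfra, Dcn and Ly6a, the sums were 2306 to 2641, 2243 to 2346, 2417 to 2867 and 2425 to 2672 CPM in the same order. At day 3, 1 of these markers was higher (Ly6a, 0.28) and 2 were lower (Dpp4, -0.52, and Clec3b, -0.47). Between days in the scrambled arm 7 fell and 1 rose, with a median of -0.22 and a range from -1.33 to 0.51. Ly6a went from a mean of 7.12 to 5.79 log2 CPM there. The markers with the highest levels weigh most in the sums, so falls of lower markers show little in them.

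Macrophage markers moved in the same direction as most of the 10 genes. Over 12 of them, such as the complement gene C1qa and the receptor gene Csf1r, the sums were 3292 to 3355 and 4586 to 5007 CPM in the scrambled and treated libraries of day 3, and 412 to 650 and 444 to 685 CPM at day 7. At day 3, 6 of 12 were higher (Aif1 by 1.11, C1qb by 0.82, C1qa by 0.77 and Csf1r by 0.48 among them) and 0 were lower, and between days in the scrambled arm all 12 fell (median -2.55). The 10 markers of regenerating fibres, such as embryonic myosin Myh3, had 5 higher and 0 lower at day 3, and 9 fell between days. Their sums were 2943 to 3801 and 4725 to 5171 CPM at day 3, and 724 to 2102 and 1141 to 1434 CPM at day 7.

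Markers of mature fibres went the other way: 11 of 12 were lower with anti-miR-106b at day 3 (median -0.72) and all 12 rose between days in the scrambled arm (median 0.88). Their sums were 110662 to 131634, 71869 to 78334, 212594 to 231210 and 197436 to 221645 CPM in the order of groups used above. The share of reads in mitochondrial genes was 7.64% ± 0.11, 4.81% ± 0.02, 9.59% ± 1.25 and 10.2% ± 0.39 (SD, n = 3). Of 9 endothelial markers 4 were higher at day 3 and 9 rose between days in the scrambled arm. Their sums were 223 to 235, 241 to 263, 357 to 385 and 276 to 302 CPM. The change of the anti-miR-106b effect from day 3 to day 7 was lower for 7 of the 9 and higher for 0 (median -0.495). Among all tested genes that change was lower for 9.07% and higher for 13.2%. At day 7 none of the 9 passed by limma's adjusted p, with 8 below 0.05 unadjusted, all downward (median -0.37). By the same unadjusted p 11.2% of all tested genes were below 0.05. Of 9 pericyte and smooth muscle markers 4 were higher and 1 lower at day 3 (5 rose and 4 fell between days), and of 8 tenocyte markers 2 were higher and 1 lower (4 rose and 2 fell). The part of these cell types in the differences of the 10 genes was not tested.

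**Figure D5:**
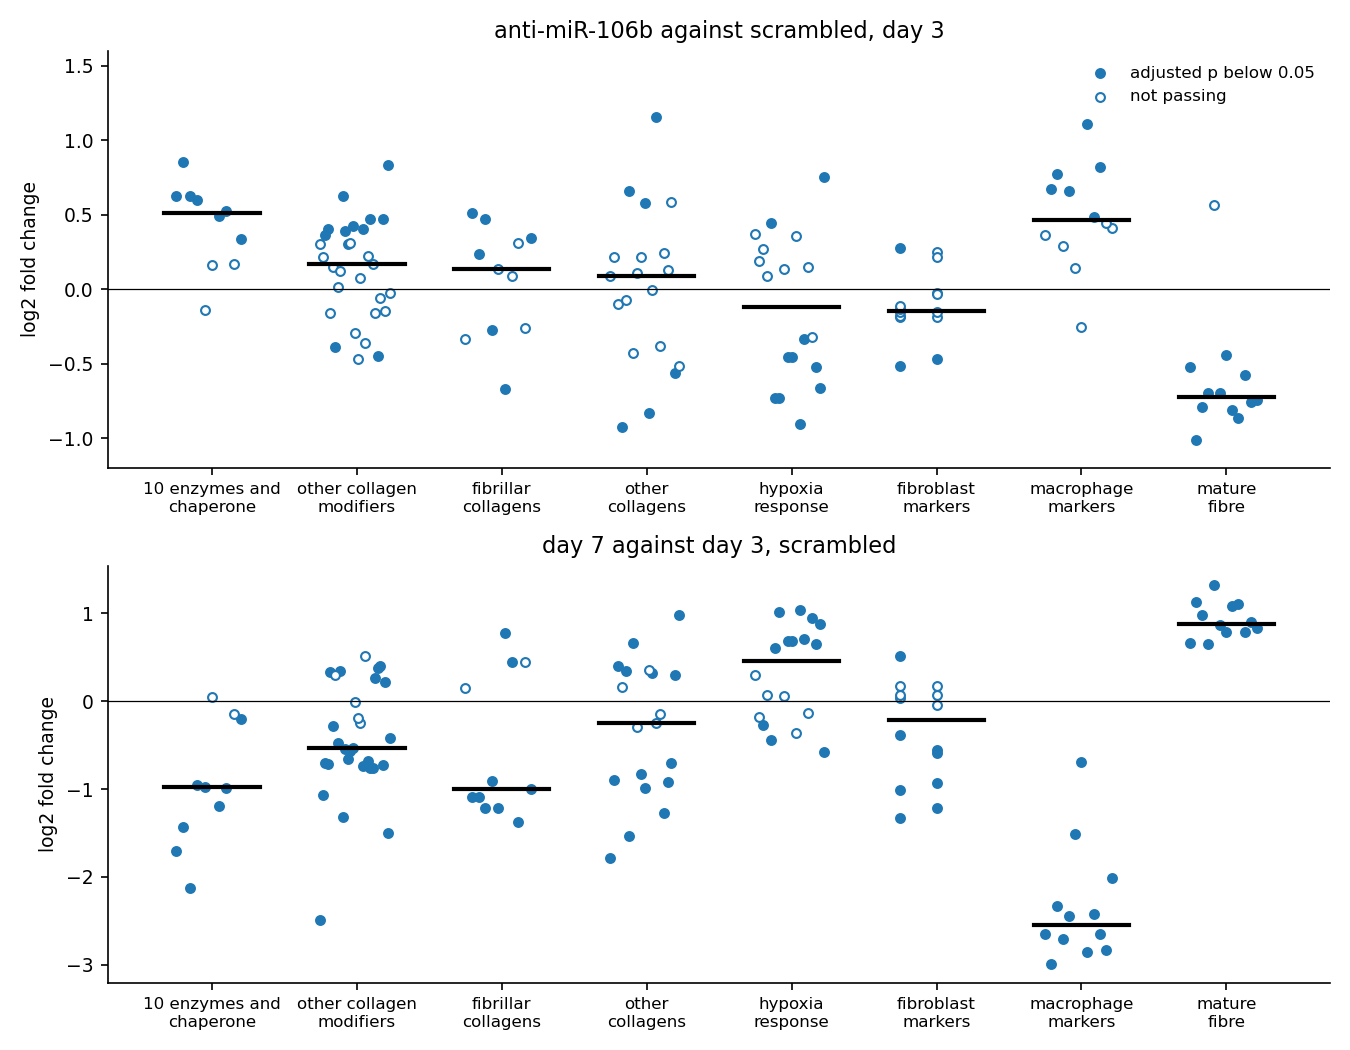
Log2 fold change (vertical axis) of each gene (points, filled for an adjusted p below 0.05 by limma) in the 10 enzymes and chaperone and in 7 other lists, with the list median as a bar, for anti-miR-106b against scrambled at day 3 (top) and day 7 against day 3 in scrambled muscle (bottom). The 10 genes have medians of 0.51 and -0.98, macrophage markers 0.46 and -2.55, fibroblast markers -0.14 and -0.22, and mature fibre genes -0.72 and 0.88.

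The genes whose level followed a member most closely were found by the root mean square difference of log2 CPM over the 12 libraries, each gene centred on its own mean. The nearest tested genes to Serpinh1 were Gnai2, a G protein subunit, at 0.05 log2 units, the collagen-binding receptor gene Mrc2 at 0.07 and Ifitm2 at 0.07. For Plod2 they were Actb, encoding cytoplasmic actin, at 0.06, Steap2 at 0.07 and Snx1 at 0.07. For P4ha1 they were Cept1 at 0.05 and the chaperone genes Hsp90ab1 at 0.07 and Hspe1 at 0.08, and for Lox Ctsb, encoding the protease cathepsin B, Tubb5 and Gla at 0.11 to 0.12. Among the 10 genes themselves Loxl1 and Serpinh1 were nearest, at 0.07, followed by Plod2 with Serpinh1 at 0.14 and with Loxl1 at 0.16, and P4ha1 with P4ha2 at 0.16. P4ha2 and P4ha3 were farthest apart, at 1.31.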

How the data were processed

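Total RNA was turned into 12 libraries with a TruSeq RNA kit, per the labels' protocols. The mouse build mm10 and the tools limma 3.34.9, edgeR 3.20.9, featureCounts, STAR, Trim Galore 0.4.3.1 and FastQC 0.72 are named by the authors, per the submitters' processing notes, and the tools' order, settings and use of strand are not given in the sources used here. The authors deposited 1 table of log2 CPM values. After removal of the logarithm, 100% of values were whole reads within 0.001, with a prior of about 0.25 reads and scaled library sizes, and 1 read was worth 0.0213 to 0.0356 CPM. CPM per kilobase used the merged exon length of GENCODE M21 (GRCm38).

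R 4.3.3 with limma 3.58.1 was used on the log2 values as deposited: 1 mean per group over all 12 libraries, a prior variance that follows the level, two-sided tests, and Benjamini-Hochberg adjustment over the 14063 genes with 1 CPM in at least 3 libraries, called at an adjusted p below 0.05. Single genes were not tested by permutation, since 3 against 3 cannot give a p below 0.1. The calculations were tested on simulated data. All 10 genes are named, and of the other 11 lists P4hb, Plod3, Loxl4, Col1a1, Col1a2, Col3a1 and up to 4 genes with the smallest p at day 3 and up to 4 over time in the scrambled arm, with the 3 genes most like Serpinh1, P4ha1, Plod2 and Lox. The 10 genes and the lists were chosen with earlier results of these data known. Replicate numbers were not treated as pairs: residual correlations of same-numbered libraries in compared groups were -0.185 to 0.144, with 1 of 12 over 0.1. Whether animals gave more than 1 muscle is not stated, and libraries were taken as independent. All pairs of replicates differed by more than sampling noise. Alternatives were other filters, added CPM, quantile and total-count scaling, weights, a replicate block and leaving out each library.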

Additional observations from a re-analysis of the deposited data

Results flagged for a closer look

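For 6 genes the effect of anti-miR-106b differed between the days by the test of the interaction. The change of the log2 effect from day 3 to day 7 was -1.08 for Loxl3, -0.78 for P4ha3, -0.67 for Serpinh1, -0.67 for Loxl1, -0.49 for Plod2 and -0.47 for Plod1. Among all tested genes this change was lower for 9.07% and higher for 13.2%. In each of the 6 the treated libraries lay above the controls at day 3 and overlapped them at day 7. The 6 were picked by a test on these same libraries, so this pattern is no separate evidence. The share of all tested genes with this pattern was not counted. Of the 29 other genes of collagen modification the change was lower for 5 and higher for 1 (median -0.13). Among the 11 fibrillar collagens it was lower for 3 (Col5a1 -0.71, Col1a1 -0.69 and Col1a2 -0.44) and higher for 1 (Col24a1 0.52). Between the same days the median change over macrophage markers was -0.40 with 1 of 12 lower, and over mature fibre genes 0.72 with 8 of 12 higher. Over the 10 regenerating fibre markers the median change was -0.42, with 0 called. Over endothelial markers it was -0.495 with 7 of 9 lower and 0 higher. The part of these cell types in the change was not tested.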

How the results depend on the processing

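The count tests planned with edgeR and DESeq2 were not run, because the table holds log2 values; weights from the recovered reads (voom), chosen after seeing the data, were used instead. The number of the 10 genes called at day 3 was 7 to 8 with each library left out, that for the change of effect 5 to 7, and those between days 8 in the scrambled arm and 8 to 9 with anti-miR-106b. At day 7 it was 0 to 1. The replicate block kept all 5 counts of called genes (7, 0, 6, 8 and 8), and changed no call of a single gene among the 10. Library weights called 10 genes at day 3 (Loxl2 downward) and 8820 genes in all against 5022, and 5334 against 3134 for the change of effect. In the comparison at day 7 all called genes numbered 9, and 20 with a filter at 0.5 CPM, 15 with no filter, 35 or 46 with 1 or 5 CPM added, 17 with quantile normalization, 28 with total counts, 58 with library weights, 23 with the replicate block, 16 with voom weights, 2 with only the groups compared, and 0 to 457 with a library left out.

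Directions turned for small differences. With total counts Loxl2 at day 3 became 0.052, its change of effect -0.16, Plod2 at day 7 -0.027, and P4ha2 -0.20 for the change of effect, -0.36 over time in scrambled muscle and -0.56 (adjusted p = 1.65e-06) with anti-miR-106b. P4ha2 was -0.040 for the change of effect with quantile normalization, and Plod2 at day 7 -0.014 with library weights. With a library left out, the day 7 differences ranged from -0.0059 to 0.27 for P4ha1, -0.25 to 0.035 for P4ha3, -0.043 to 0.040 for Plod2 and -0.22 to 0.0069 for Serpinh1, and the change of effect from -0.022 to 0.16 for Loxl2, -0.18 to 0.10 for P4ha1 and -0.024 to 0.084 for P4ha2. P4ha1 and P4ha2 at day 3 passed with total counts (0.36 and 0.35), library weights and only the groups compared, and P4ha2 with quantile normalization. The share of called genes that were higher for the change of effect was 59.3%, against 20% with total counts, 47.5% with 5 CPM added, and 52.5% to 64.4% under the other settings, libraries left out included. The causes were not tested.

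Of the ratios, the replicate block left the called values at -0.22 (adjusted p = 0.0833) for P4ha1 to P4ha2, 2.35 for P4ha1 to P4ha3, -1.01 for Plod2 to Plod1, -0.56 for Lox to Loxl1, 1.03 for Loxl2 to Loxl3 and 0.28 for Serpinh1 to Col1a1 between days (each 0.0536), and 0.14 (0.0536) for Plod2 to Plod1 and 0.13 (0.0833) for Serpinh1 to Col1a1 between arms, all exact permutation tests with fewer arrangements. With 5 CPM added P4ha1 to P4ha2 was -0.20 between days, and Plod2 to Plod1 0.10 and Serpinh1 to Col1a1 0.13 between arms, none of which passed. Quantile normalization gave -0.057 for Serpinh1 to Col1a1 between arms. With a library left out the ratios between arms ranged from -0.068 to 0.039 for P4ha1 to P4ha2, -0.15 to 0.0091 for P4ha1 to P4ha3, 0.10 to 0.16 for Plod2 to Plod1, 0.19 to 0.38 for Lox to Loxl1 and 0.10 to 0.16 for Serpinh1 to Col1a1, and between days from -0.27 to -0.17 for P4ha1 to P4ha2. Depth limits P4ha3 at day 7 most, at 39 to 80 reads a library.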

Other observations

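The genes near Loxl3 were looked at after the values of Loxl3 were seen. Dok1, which encodes a docking protein of tyrosine kinase signalling, lies on the other strand of chromosome 6 (chr6:83030934-83033471, GRCm38), 702 bases from Loxl3, and shares no exon bases with it. Its mean level was 3.76 and 4.68 log2 CPM in the scrambled and treated groups of day 3 and 2.56 and 2.47 in those of day 7. It was higher with anti-miR-106b at day 3 by 0.93 (SE 0.09, adjusted p = 3.42e-05) and fell between days by 1.20 in the scrambled arm and by 2.22 with anti-miR-106b on the log2 scale (adjusted p = 9.51e-08 and 2.65e-10). Aup1, 1959 bases beyond the other end, differed by 0.34 (SE 0.07, adjusted p = 0.00136) at day 3. Between days Aup1 differed by 0.0047 (SE 0.07, adjusted p = 0.955) in the scrambled arm and -0.27 (SE 0.07, adjusted p = 0.00151) with anti-miR-106b. M1ap, on the same side as Dok1 and 3864 bases from Loxl3, did not pass at day 3 (0.41, SE 0.20, adjusted p = 0.119). Between days M1ap differed by -0.13 (SE 0.20, adjusted p = 0.573) in the scrambled arm and -0.86 (SE 0.20, adjusted p = 0.0011) with anti-miR-106b.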
